A study of Mus musculus with 2 samples.

Results

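The miRNAs examined here are among those known to reach Dicer without being cut by the nuclear enzyme Drosha. They were taken from an array of 1040 mouse miRNA probes as every probe for the hairpins of miR-320, miR-484, miR-877, miR-1224 and miR-702, with each arm present, which gave 8 probes from 5 miRNA genes. These were miR-320, miR-320*, miR-484, miR-1224, miR-1224*, miR-877, miR-877* and miR-702, where the asterisk marks the strand that the array design named as the minor one. Their rule uses names and no measured value, although results of these arrays were known when it was written.

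RNA came from ureteric bud cells, the epithelium that grows and branches to make the collecting system of the kidney. Embryos at stage E15.5 carried the alleles Rosa26YFP and Hoxb7Cre, and the cells were sorted from trypsinised kidneys by the yellow fluorescence alone. Hoxb7Cre is a recombinase transgene active in the Wolffian duct and its derivatives, so the sorted population is defined by the history of that driver. There was 1 group with 2 samples. Replicate 1 was stained with Cy3 and replicate 2 with Cy5, which leaves dye and sample confounded. All cells of both samples carried the same alleles, Drosha and Dicer were not manipulated, and the analysis held no second cell type, stage or genotype. The labels do not say whether the samples came from separate litters, so differences between them may be technical. The arrays therefore show which of these probes stood above background in ureteric bud cells, and do not measure how the miRNAs were made. RNA under 300 nt was stained, so signal of a mature strand was not separated from that of a longer RNA containing it.

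In the usual route, the Microprocessor complex of Drosha and Dgcr8 releases a hairpin from a long primary transcript, and Dicer then trims it to the mature duplex. Mirtrons skip the first step because the hairpin is a short intron, cut out by the spliceosome and opened by the lariat debranching enzyme. A second group starts at a transcription start site, where a short capped transcript is itself the hairpin. In both groups Dicer makes the final cut and a strand is loaded onto an Argonaute protein. The start-derived group is represented by miR-320 and miR-484, and the mirtrons by miR-877, miR-1224 and miR-702. Loss of Dicer removes canonical and Drosha-independent miRNAs alike.

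The targets printed on the array are shown first because everything measured depends on them, with the seed, bases 2 to 8 counted from the 5′ end, in capitals.
miR-320: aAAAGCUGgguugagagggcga
miR-320*: gCCUUCUCuucccgguucuucc
miR-484: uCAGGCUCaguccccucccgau
miR-1224: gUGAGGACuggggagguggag
miR-1224*: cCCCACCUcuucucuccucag
miR-877: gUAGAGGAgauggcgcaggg
miR-877*: uGUCCUCUucucccuccuccca
miR-702: uGCCCACCcuuuaccccgcuc

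No member shared its seed with any other probe on the array, nor with another member. The longest run of bases that a member had in common with any other array target was 8 for miR-320, miR-877 and miR-702. It was 9 for miR-320*, miR-1224 and miR-1224*, and 10 for miR-484 and miR-877*. By exact seed and longest exact run, members of this set thus showed no close relative among the array's targets. Likeness that allows mismatches was not examined. RNAs that the array does not target were not compared. Of the 8 members, 6 matched a RefSeq mature miRNA of assembly GRCm38.p6, and miR-320 and miR-320* had no match. The probe miR-702 corresponded to miR-702-3p and covered 21 of its 22 bases, and the array names miR-1224 and miR-877 corresponded to the 5p strands.

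RefSeq hairpins are shown for every gene of the set except Mir320, which had no hairpin record in the source used. In the mirtron records Mir1224 (chr16:20604452-20604536, plus strand) and Mir877 (chr17:35960730-35960814, minus strand) the capitals mark the first and last pair of bases, the GU and AG that begin and end most introns. In Mir484 (chr16:14159626-14159692, plus strand) and Mir702 (chr5:136991433-136991541, plus strand) they mark the array's target.
Mir1224: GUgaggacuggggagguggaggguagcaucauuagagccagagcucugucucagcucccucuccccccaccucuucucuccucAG
Mir877: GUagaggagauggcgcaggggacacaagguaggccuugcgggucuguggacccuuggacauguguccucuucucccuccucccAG
Mir484: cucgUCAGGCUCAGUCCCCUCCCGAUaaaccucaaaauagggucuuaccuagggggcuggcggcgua
Mir702: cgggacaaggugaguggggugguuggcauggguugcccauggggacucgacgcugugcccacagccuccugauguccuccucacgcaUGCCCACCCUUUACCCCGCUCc

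Both mirtron hairpins that begin with GU and end with AG are 85 nt long. In each, the unstarred strand starts at base 1, so the 5′ end of the mature miRNA is the 5′ end of the record. At the other end, miR-1224* finishes on the last base of its record and miR-877* leaves 1 base after it. The Mir702 record is 109 nt long, has its first GUGAG at base 10 and does not end in AG. In Mir484, of 67 nt, the mature strand begins at base 5. Among all 1005 mouse hairpins in the RefSeq table, 30 (2.99%) begin with GU and end with AG on the strand given. Among the array's 1040 targets 30 (2.88%) begin with GU, as do 2 of the 8 members, miR-1224 and miR-877. These letters describe the records and do not by themselves mark a mirtron.

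The gene neighbourhoods differ between the mirtrons and the start-derived miRNAs. Mir1224 lies inside the span of Vwa5b2, Mir877 inside Abcf1, which encodes an ATP-binding protein of translation initiation, and Mir702 inside Plod3, which encodes a collagen-modifying lysyl hydroxylase. In all 3 cases the miRNA and its host run on the same strand. Mir320 (chr14:70443510-70443591) lies outside any protein-coding span, 38 bases from the edge of Polr3d, a subunit gene of RNA polymerase III. Mir484 also lies outside, 347 bases from the start of Marf1 on the opposite strand and 3582 bases before the RefSeq span of Nde1, the gene whose upstream region it is usually assigned to. The table gives gene spans without exons, so the intronic position of the mirtrons is stated here from what is known of them.

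**Figure D1:**
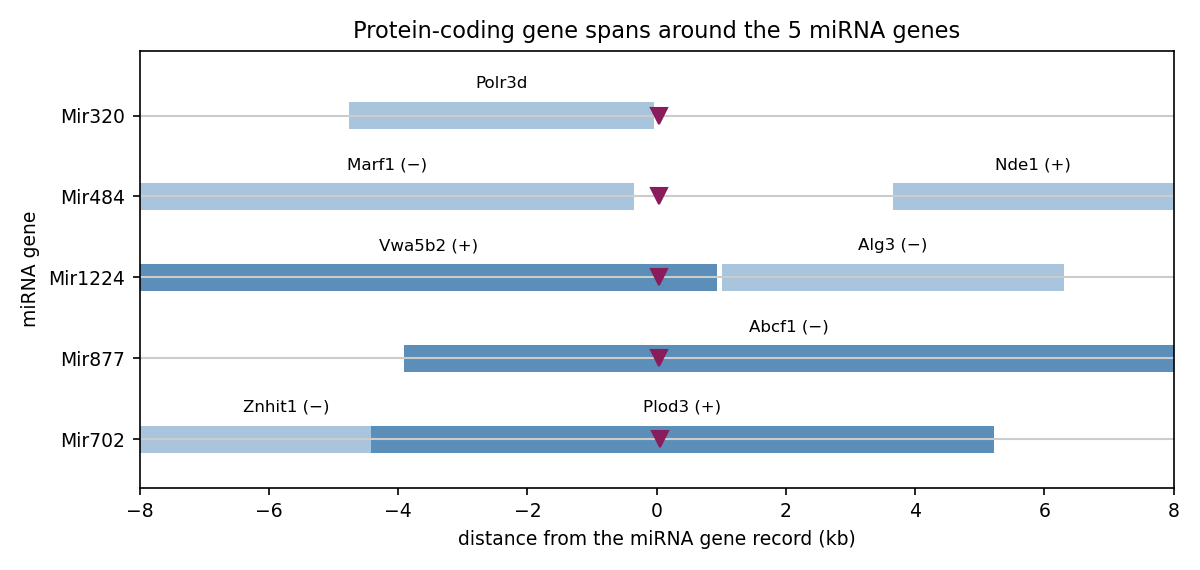
Protein-coding gene spans around the 5 miRNA genes in GRCm38.p6, with distance from the miRNA gene record in kb on the horizontal axis and 1 miRNA gene per row. Triangles mark the miRNA, dark bars a gene that contains it, pale bars the nearest gene on each side, and signs the strand where it was known. Mir1224, Mir877 and Mir702 sit inside a gene, and Mir320 and Mir484 sit beside gene ends.

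Detection was judged on each array against its 560 blank spots, with a limit at their mean plus 3 SD. Blank spots averaged 203.9 units of intensity in replicate 1, where the limit was 303.2, and 58.9 units in replicate 2, where it was 81.1. A single blank spot of 916.8 units widens the limit of replicate 1, which is 243.5 units without it. Each probe has 3 repeat spots, and a sample counted as positive for it when 50% or more of them exceeded the limit. Of the 8 members, 2 were detected in both samples (miR-320 and miR-1224), 1 in replicate 1 only (miR-484) and 5 in neither. Over all 1040 probes 5.96% were detected in both samples, 7.88% in replicate 1 and 6.15% in replicate 2. With 8 members, a share of 2 in 8 rests on very few probes. The median member lay at 0.805 times the limit in replicate 1 and 0.732 times in replicate 2, against 0.735 and 0.655 times for the median of all probes. Cell type markers were also listed, with earlier results of these data known. Of 5 epithelial markers, 3 (miR-200c, miR-200b and miR-429) were detected in both samples and miR-200a and miR-141 were not. Of 14 markers of mesenchyme, endothelium, blood and nephron tubule, 0 were detected in both samples and 1, the mesenchymal miR-214, in replicate 2. Since only 5.96% of all probes were detected in both samples, these counts do not measure the purity of the sorted cells.

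The start-derived miRNAs come first. miR-320, a widely expressed miRNA whose capped precursor leaves the nucleus through exportin 1, was the clearest signal of the set. Its 3 repeat spots read 1096, 1158 and 1169 units in replicate 1 and 215.8, 226.3 and 232.1 units in replicate 2. All 6 spots exceeded the limit of their array, with medians at 3.82 times the limit in replicate 1 and 2.79 times in replicate 2. The repeat spots were tight, with coefficients of variation of 4.20% and 4.97% after subtraction of the median blank, against medians of 8.09% and 11.8% over the detected miRNAs. After background correction and quantile normalization the log2 signal was 9.27 in replicate 1 and 8.77 in replicate 2, a mean of 9.02 ± 0.35 (SD, n = 2). That mean stood 2.76 ± 0.64 log2 units over the blank level and passed limma's treat test of a more than 2-fold excess (adjusted p = 2.93e-07, two-sided, Benjamini-Hochberg over 1040 probes). This test called 3.46% of all probes, and miR-320 was the only member among them. Its prior degrees of freedom were infinite, so its p-values rest on a variance trend over all probes. They do not measure the spread between the 2 samples of a probe. The call was lost without normalization and with a median shift (limma's treat, adjusted p = 1 for each), where the mean excess was 2.75 ± 1.34 log2 units, and with a 4-fold bound (adjusted p = 0.353).

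The opposite strand, miR-320*, was at the level of the blanks. It read 217.4 to 228.5 units in replicate 1 and 48.1 to 57.0 units in replicate 2, with 0 of 3 spots above the limit on either array. Its log2 signal was 6.25 ± 0.02 (SD, n = 2), and the blank level on this scale was 6.06 in replicate 1 and 6.46 in replicate 2. So the probe for 1 strand of this hairpin was detected and the probe for the other could not be detected above the blanks.

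miR-484, which in mouse heart cells has been described as a repressor of the mitochondrial fission factor Fis1, lay at the limit. Its spots read 347.5, 344.0 and 327.1 units in replicate 1, all above 303.2. In replicate 2 they read 82.9, 76.1 and 58.5 units, so 1 of 3 exceeded 81.1 and the probe was not called there. The medians were 1.13 and 0.938 times the limit. The 3 spots of replicate 2 thus ran from about the blank mean of 58.9 units to just above the limit. The log2 signal was 7.08 in replicate 1 and 7.15 in replicate 2 (mean 7.11 ± 0.04, SD, n = 2). That mean was 0.85 ± 0.24 log2 units over blank and did not pass the treat test (limma, adjusted p = 1). Although it was called in replicate 1 only, its normalized signals differed by -0.06 log2 units (replicate 1 minus replicate 2). The blank level on this scale was lower in replicate 1, at 6.06, than in replicate 2, at 6.46. With the 95th percentile of blank spots as the limit, miR-484 was detected in both samples, as were 7.21% of all probes.

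**Figure D2:**
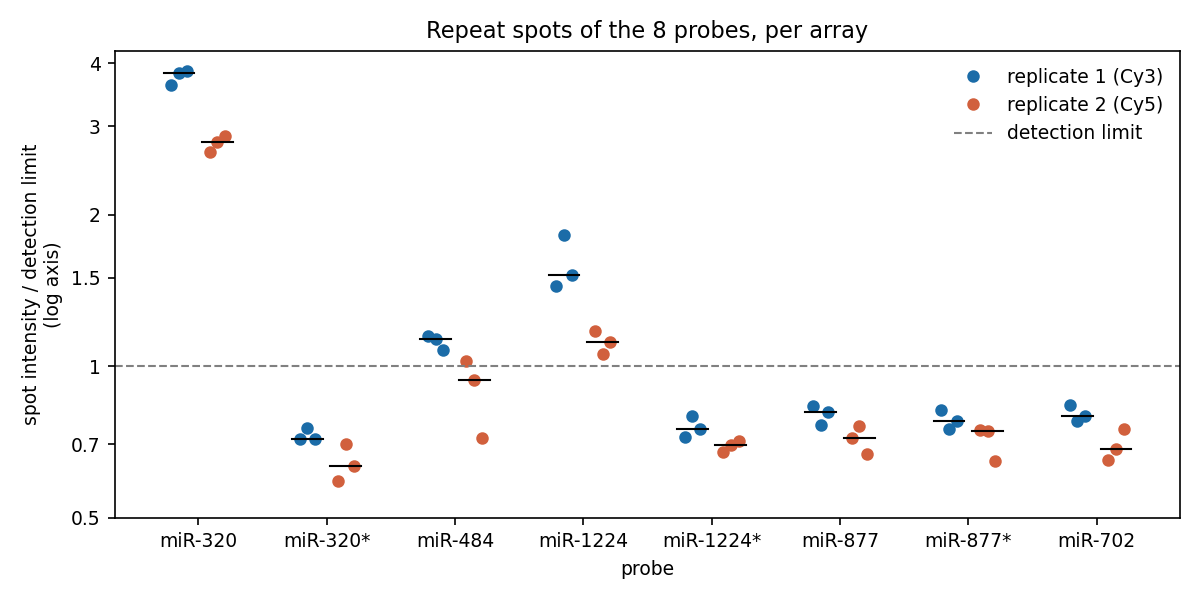
Intensity of each repeat spot divided by the detection limit of its array, on a log axis, for the 8 probes. Blue points are the 3 spots in replicate 1 and orange points those in replicate 2, black bars are medians, and the dashed line is the limit. All spots of miR-320 and miR-1224 lie above the line, those of miR-484 straddle it in replicate 2, and all spots of the other 5 probes lie below it.

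Of the mirtrons, miR-1224 was the detected one, and only by the probe for its 5′ strand. Its spots read 437.2, 551.8 and 460.9 units in replicate 1 and 95.5, 85.7 and 90.5 units in replicate 2, so all 6 exceeded the limits. The medians were 1.52 times the limit in replicate 1 and 1.12 times in replicate 2. These medians were 7.76 and 4.27 blank SD above the blank mean, or 18.9 and 4.40 blank SD without the brightest blank spot of each array. After subtraction of the median blank, the repeat spots had coefficients of variation of 21.6% in replicate 1 and 15.3% in replicate 2. Both are above the medians over the detected miRNAs, 8.09% and 11.8%. The normalized log2 signal was 7.57 in replicate 1 and 7.43 in replicate 2, a mean of 7.50 ± 0.09 (SD, n = 2). The mean excess over blank was 1.24 ± 0.38 log2 units, where the blank level was 6.06 in replicate 1 and 6.46 in replicate 2. It did not pass the treat test of more than 2-fold (limma, unadjusted p = 0.221, adjusted p = 1). The size of this excess depended on the background correction. It was 0.93 log2 units without correction and 5.46 with the median blank subtracted. The signal thus exceeded the limit in every spot and lay close to it in replicate 2. With limits of 6 or 10 blank SD, which left 4.33% and 3.17% of all probes detected in both samples, miR-1224 was no longer among them. With the median blank subtracted in place of normexp it passed the treat test (limma, adjusted p = 0.0178).

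The other strand of this mirtron, miR-1224*, read 219.3 to 241.5 units in replicate 1 and 54.8 to 57.7 units in replicate 2, with no spot above a limit. Its replicate 2 median of 56.5 units was below the blank mean of 58.9 and above the median of all miRNA spots on that array, 53.1 units.

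miR-877 and miR-877*, the strands of the Abcf1 mirtron, were not detected. miR-877 read 232.3 to 253.4 units in replicate 1 and 54.3 to 61.6 units in replicate 2, with medians at 0.811 and 0.719 times the limits. miR-877* read 227.6 to 248.8 units in replicate 1 and 52.6 to 60.6 units in replicate 2. miR-702, from the Plod3 mirtron, read 235.6 to 254.2 units in replicate 1 and 53.0 to 60.8 units in replicate 2, also below both limits. The mean log2 signals of these 3 probes were between 6.44 and 6.50, where the median of all probes was 6.29. All 3 lay within 0.24 log2 units of blank on average. The arrays differ here: in replicate 2 their spots fell on both sides of the blank mean, and in replicate 1 all lay above it. This offset is not particular to them. The median of all miRNA spots was 223.9 units in replicate 1, above the blank mean of 203.9. In replicate 2 it was 53.1 units, below the blank mean of 58.9. Without the brightest blank spot, miR-877 was detected in replicate 1 (12.8% of all probes were), and with the 95th percentile of blank spots all 3 were, as was miR-1224* (36.1% of all probes were). None of these probes was detected in replicate 2 under either limit. A level hidden by the blanks of these arrays cannot be told from none.

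Taking the set by strand, 2 of the 5 unstarred probes were detected in both samples and 0 of the 3 starred probes. On the whole array this held for 59 of 710 unstarred probes (8.31%) and 3 of 330 starred ones (0.909%). By origin, 1 of 3 start-derived probes and 1 of 5 mirtron probes were detected in both samples, where 5.96% of all probes were. Probes differ in affinity, so the members' intensities are not set against each other as amounts.

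Local background on the slide was examined from the 8 spots around each member spot. Around miR-320 their median was 211.4 to 221.3 units in replicate 1 and 48.2 to 52.1 units in replicate 2. Around miR-1224 it was 206.1 to 232.8 units in replicate 1 and 55.6 to 58.9 units in replicate 2, and around miR-484 226.1 to 232.6 and 48.3 to 52.4 units. These surroundings lay below the limit on both arrays. In replicate 1 they were above the blank mean of 203.9 units, and in replicate 2 at or below that of 58.9 units. The median of all miRNA spots was placed likewise, at 223.9 units in replicate 1 and 53.1 units in replicate 2. Every spot of these probes read above its surrounding median. No surrounding spot exceeded miR-320 or miR-484. At miR-1224 a single neighbour per spot was brighter in replicate 2 and 0 were in replicate 1. Each spot of miR-1224* adjoined a calibration control of 52559 to 55692 units in replicate 1, and those of miR-877 and miR-877* one of 39521 to 41178 units. All of these member spots read below the limit. An effect of neighbouring spots was not tested.

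All 8 targets are rich in G and C, from 54.5% for miR-320 to 66.7% for miR-1224 and miR-702, where the median of all 1040 targets is 47.8%. The share detected in both samples was 7.26% of 179 probes over 60% GC and 4.64% of 237 probes over 50 and up to 60%. It was 7.56% of 410 probes over 40 and up to 50%, and 3.27% of 214 probes at or under 40%. In the same order the shares were 8.94%, 6.75%, 8.78% and 6.54% in replicate 1. In replicate 2 they were 7.26%, 5.06%, 7.8% and 3.27%. Of the 5 members over 60% GC 1 was detected in both samples, and of the 3 below that also 1. miR-1224 and miR-702 have the same GC content and length, and only miR-1224 was detected in both samples. Their targets are not matched in composition, since G prevails in that of miR-1224 and C in that of miR-702. An effect of base content on signal was not tested.

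**Figure D3:**
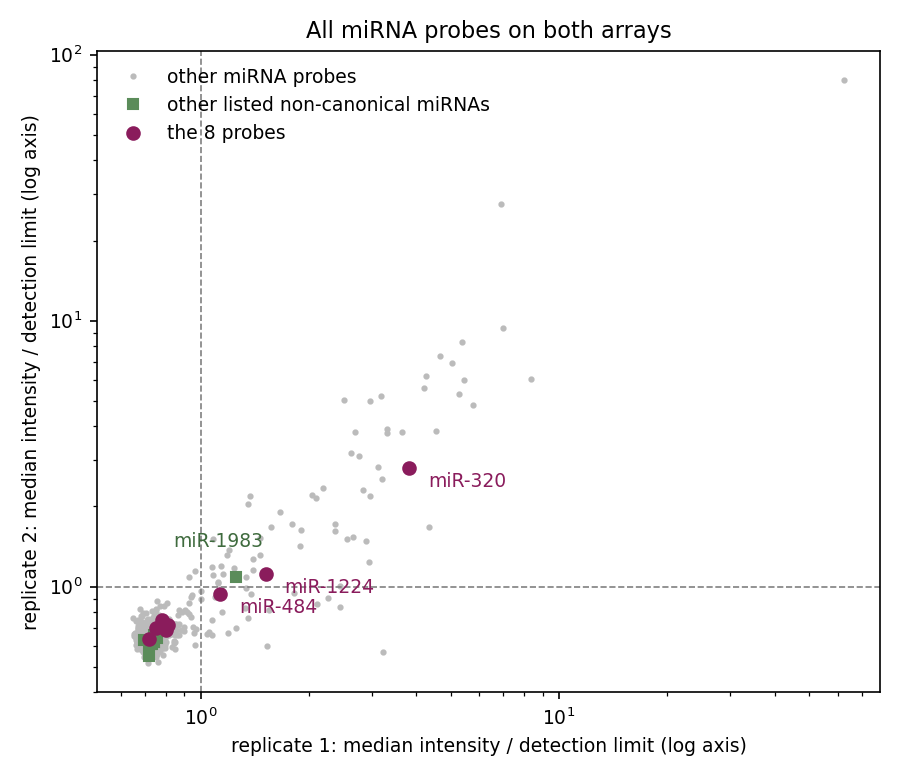
Median intensity divided by the detection limit in replicate 1 (horizontal) and replicate 2 (vertical), both log axes, for all 1040 miRNA probes. Purple circles are the 8 probes, green squares 11 other listed non-canonical probes, grey dots the rest, and dashed lines the limits. miR-320 lies well inside the upper right quadrant, miR-1224 and miR-1983 just inside it and miR-484 just below it.

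Other miRNAs described as leaving the usual route were taken as a list of 11 probes for miR-451, miR-664, miR-668, miR-1981, miR-1982 and miR-1983. Of these, 1 was detected in both samples, where 5.96% of all probes were. That probe was miR-1983, whose hairpin overlaps a transfer RNA gene, at 381.0 units in replicate 1 and 88.4 units in replicate 2. These are 1.26 and 1.09 times the limits, and the excess of 1.07 ± 0.19 log2 units over blank (SD, n = 2) did not pass the treat test (limma, adjusted p = 1). The call was lost with limits of 6 or 10 blank SD. RNA under 300 nt was stained, and signal of the transfer RNA was not separated from that of miR-1983. The other 10 probes lay below the limits on both arrays. Among them was miR-451, which needs Drosha but is matured by Argonaute 2 in place of Dicer and is abundant in red cells. It read 218.0 units in replicate 1 and 44.4 units in replicate 2. The median of the list was 0.740 times the limit in replicate 1 and 0.621 times in replicate 2, where that of all probes was 0.735 and 0.655 times.

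The samples were then compared for each member. After normalization miR-320 was higher in replicate 1 by 0.50 log2 units and miR-1224 by 0.13, and the median absolute difference over the 62 detected miRNAs was 0.37. These differences have 1 sample on each side and no test. Before normalization the arrays differed in scale, and with the median blank subtracted, miR-320 was 5.68 times and miR-1224 8.03 times brighter in replicate 1. The 62 detected miRNAs had a median ratio of 3.74, with quartiles at 2.98 and 5.40, so both members lie above the upper quartile. Without normalization the differences were 2.14 log2 units for miR-320, 1.76 for miR-1224 and 1.37 for miR-484, and the median of all probes was then shifted by 0.69.

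The table of processed values that the authors deposited separated the same 3 members from the others. In it miR-320 had 1684 units in replicate 1 and 1220 in replicate 2, miR-1224 406 and 327, and miR-484 191 in both. miR-877 had 37 and 31, miR-702 25 and 22, miR-877* 22 and 21, miR-1224* 17 and 19, and miR-320* 8 and 9. The column medians over all probes were 10 and 9. These values are linear, whole numbers and follow the scanner intensities (Spearman's rho across the 62 detected miRNAs 0.987 in replicate 1 and 0.995 in replicate 2). How they were scaled is unknown. In this table the differences between the samples (replicate 1 minus replicate 2) were 0.47 log2 units for miR-320, 0.31 for miR-1224 and 0 for miR-484, where the median over the 62 detected miRNAs was -0.24. All 3 are smaller than without normalization.

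**Figure D4:**
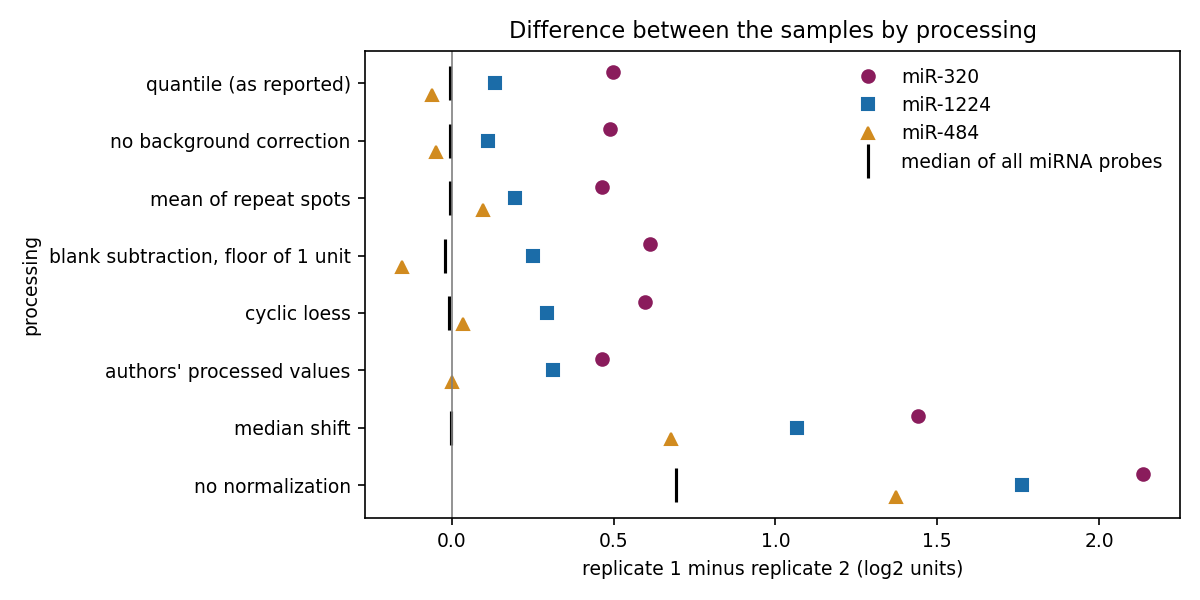
Replicate 1 minus replicate 2 in log2 units (horizontal) for miR-320, miR-1224 and miR-484 under 8 ways of processing (rows), with a black bar at the median of all miRNA probes where it was computed. miR-320 and miR-1224 lie right of zero in every row, with the largest differences where the arrays were not normalized or only shifted to a common median. miR-484 lies on either side of zero.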

How the data were processed

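For each array the authors deposited raw scanner output giving every spot's mean intensity, neither background-subtracted nor normalized per the values of the blank spots. Arrays were run by a service provider (LC Sciences) from 4 µg of total RNA, per the labels' protocols, and RNA under 300 nt was tailed, tagged and stained. A second deposited table holds processed intensity values, whose method is not given in the sources used here. Scanner, software and genome build are not given either. Precision is limited by having only 2 arrays and by the level of their blanks.

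Detection used raw intensities and the 560 blank spots. For log2 signal, all spots were corrected with normexp (offset 50), miRNA spots were quantile-normalized and repeat spots reduced to their median. Excess over blank used limma's treat function (2-fold bound, variance trend, adjusted p threshold of 0.05), whose prior degrees of freedom were infinite. Tools were R 4.3.3, limma 3.58.1, pandas 2.3.3 and Python 3.11.15. All probes of the set are named, and further probes by list or sequence. Members and lists were chosen with earlier results of these data known. Alternatives changed limit, spots, background, normalization and sample. Sequences and gene spans are RefSeq's (GRCm38.p6) or the array's targets.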

Additional observations from a re-analysis of the deposited data

How the results depend on the processing

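The count of 2 members detected in both samples became 1, miR-320, with limits of 6 or 10 blank SD, and 3, with miR-484 added, at the 95th percentile of blank spots, while the 62 of all 1040 probes became 45, 33 and 75. It stayed at 2 with a median-based limit, with all repeat spots required and, an alternative chosen after seeing the data, without the brightest blank spot of each array. It ranged from 2 to 3, and that of all probes from 64 to 82, when either replicate was used alone. For the other non-canonical list the count of 1 became 0 at 6 and at 10 blank SD and was 1 in each replicate alone. By limma's treat test the count of 1 became 2, with miR-1224 added, after blank subtraction (floor of 1 unit), and 0 without normalization, with a median shift and with a 4-fold bound. The 36 calls over all probes became 65, 2, 2 and 13 under these settings. At an unadjusted p under 0.05 the last 3 settings gave 0, 0 and 1 members (limma's treat). The cause was not tested. Fits on 1 sample leave no residual degrees of freedom, so the treat test was not run without a replicate. The difference between replicates was positive under all 8 alternatives for miR-320 (0.46 to 2.14) and miR-1224 (0.11 to 1.76), the authors' processed values having been added after seeing the data, and positive under 4 of 8 for miR-484. No paired analysis was possible because both samples belong to a single group.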

Other observations

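Array probes were also matched to RefSeq hairpins that begin with GU and end with AG, the letters at the ends of most introns. There were 12 such probes by gene symbol, and 2 of them were detected in both samples, miR-1224 and miR-20a, where 5.96% of all probes were. Of the 30 targets that begin with GU, whatever their hairpin, 1 was detected in both samples (3.33%). miR-20a belongs to the canonical cluster of miR-17 to miR-92a, so the letters alone also occur in hairpins that are not mirtrons. The probes for miR-1981, miR-1981*, miR-1982.1, miR-1982.2 and miR-1982* come from such hairpins and were not detected on either array. A further probe whose target begins with GUGAG, as miR-1224 does, was miR-3102*, at 226.7 units in replicate 1 and 57.4 units in replicate 2. It was not detected.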
